A study of Caenorhabditis elegans with 2 samples.

Results

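A total of 298 UNC-3 peaks were broad and lay outside dense clusters on chromosomes I to IV, out of 6892 peaks in the whole list and 4390 on these 4 chromosomes. They were chosen by the interval that the peak caller gave them and by their spacing. Each was 900 bp or wider (end minus start), belonged to no chain of 3 or more peaks joined by edge gaps below 1000 bp, and was not isolated by gaps of 10000 bp or more on both sides. Of the 460 peaks of this width on chromosomes I to IV, a further 109 were set aside because they sat in such chains and 53 because they were isolated. The set against which the broad peaks are described below is the 2900 peaks under 900 bp on the same chromosomes that satisfy the same spacing conditions.

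The values come from 1 ChIP library and 1 input library. Both were made from whole late L2 worms of strain OH13990, unc-3(ot839 [unc-3::gfp]), kept at 20 °C on OP50 bacteria, in which GFP is joined in frame to UNC-3 just before the stop codon of its own gene. The ChIP library holds DNA recovered with an antibody against GFP (ab290), and the input library holds total genomic DNA purified from whole worm lysates with no antibody. Both libraries therefore carry the tag, and a ChIP from untagged animals was not analysed here. UNC-3 is present in a small set of neurons, so a whole-worm library averages its binding over those cells and does not resolve them.

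UNC-3 is the sole Ebf-type (COE) transcription factor of C. elegans. In the cholinergic motor neurons of the ventral nerve cord it is a terminal selector, which means that it binds DNA near the genes for acetylcholine synthesis, receptors and channels and keeps them expressed. In ChIP-Seq a protein bound at a single site gives a pile of overlapping fragments that is highest over the site and falls away on both sides, with the point of highest pileup (the summit) near the middle of the called interval. A wider interval means that a longer stretch stayed above the threshold of the caller, which happens at the foot of a tall pile, where several piles run together, or where coverage is raised over a long stretch. The list gives 1 summit for each interval and no signal along it, so these cases can be described here by width, summit position, enrichment and background, but not separated within an interval. Gene positions on ce10, the assembly of the peaks, were not used here, and regions are named by their position on it, counted from 1.

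The width of the broad peaks had a median of 1103 bp (quartiles 980 and 1462 bp), compared with 503 bp (398 and 627 bp) for the narrower ones. Of the 298, 99 were under 1000 bp wide and 23 reached 2000 bp or more. They made up 6.79% of the peaks on chromosomes I to IV and covered 401.5 kb, or 15.1% of all bases within peaks there. The broad peaks nearest to the minimum were 900, 902 and 902 bp wide, with fold enrichments of 6.55, 5.80 and 18.7. The peaks of suitable spacing just below it were 898, 898 and 895 bp wide and had fold enrichments of 31.4, 45.1 and 23.2. The minimum does not mark a gap in the widths of the list. The spacing conditions were also met closely: the broad peak with the widest gap below 1000 bp had 999 bp to its neighbour, the next had 1000 bp, and the largest nearest gap of any was 9965 bp.

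Enrichment at the summit was high in most broad peaks. The caller's fold enrichment compares the pileup, which is the count of fragments that overlap the summit, with the count that the background would give there, after adding 1 to each. Its median was 20.4 in the broad peaks (quartiles 10.5 and 28.9, range 1.92 to 60.4) and 6.53 in the narrower peaks (quartiles 4.32 and 11.1, range 1.74 to 47.9). The medians differed by 13.8 (95% interval 11.1 to 15.6). This interval, like all others given here, covers only the error of drawing this number of peaks, treats peaks as independent of one another, and holds no error between replicates, since there were none. Enrichment reached 10-fold at 226 of the 298 broad peaks (75.8%) and at 848 of the 2900 narrower peaks (29.2%), beside 32.7% of the whole list. Width and fold enrichment are read from the same pileup, so the higher enrichment of a set chosen for its width is a description and no test was run on it.

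The pileup itself, recovered from the fold enrichment and p-value, had a median of 135 fragments over the summit of the broad peaks and 41 fragments in the narrower ones. It ranged from 22 to 499 fragments among the broad peaks, and from 14 to 365 among the narrower. The median −log10 q-value was 126.6 for the broad peaks and 20.9 for the narrower ones. The lowest −log10 q-value of a broad peak was 4.19. Broad peaks of 30-fold or more numbered 66 (22.1%), compared with 30 (1.03%) of the narrower peaks. The share of the whole list at 30-fold was not computed. Like the share at 10-fold, this contrast describes sets divided by width and is no test.

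**Figure D1:**
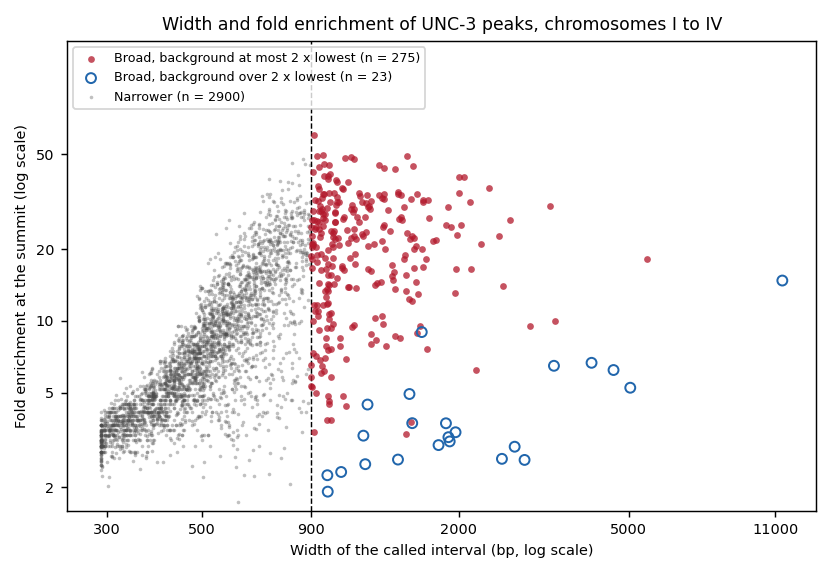
Fold enrichment at the summit (vertical axis, log scale) against the width of the interval in bp (horizontal axis, log scale) for the 298 broad peaks (red points, and blue circles where the background was over 2 times the lowest) and the 2900 narrower peaks (grey points); the dashed line is at 900 bp. Among the narrower peaks enrichment climbs with width, whereas the red points show no such trend, and most of the 23 blue circles lie below the red points of similar width.

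Enrichment did not follow width in the broad peaks as it did in the narrower ones. Spearman's rho between width and fold enrichment was -0.04 across the 298 broad peaks and 0.81 across the 2900 narrower peaks. Across the 275 broad peaks whose background was at most 2 times the lowest, it was 0.097. These coefficients are across peaks of a single library, which share its depth, and peaks are not replicates. By width, the median fold enrichment was 3.83 below 400 bp, 12.1 from 600 to 700 bp and 19.6 from 800 to 900 bp. It was 18.4 from 900 to 1000 bp (n = 99), 22.5 from 1000 to 1500 bp (n = 130), 17.5 from 1500 to 2000 bp (n = 46) and 14.8 at 2000 bp and above (n = 23), each class starting at its lower bound and ending below its upper. The median thus climbed with width below the minimum and did not above it. The 95% intervals of neighbouring classes overlapped throughout the broad range.

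**Figure D2:**
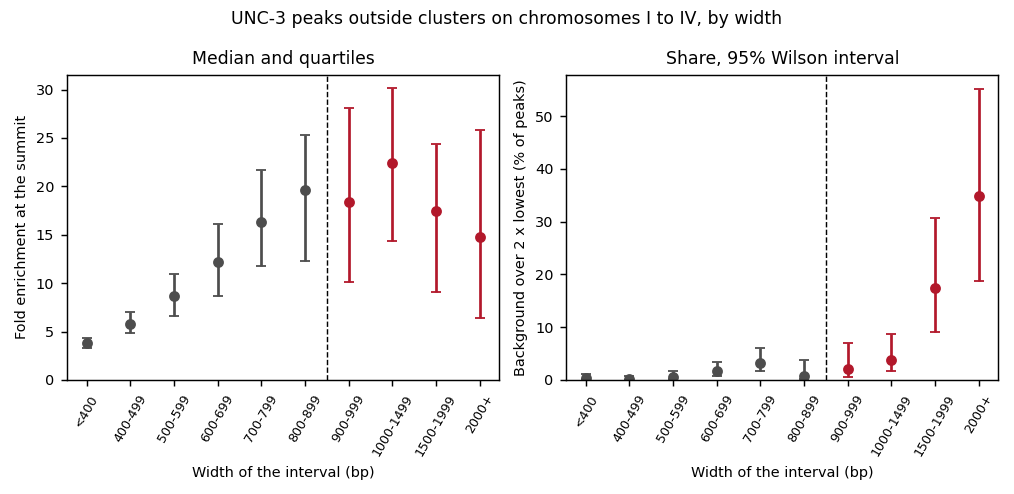
Peaks outside clusters on chromosomes I to IV by width in bp (narrower peaks in grey, broad peaks in red, dashed line at 900 bp). The left panel gives the median fold enrichment with quartiles and the right panel the percentage of peaks whose background was over 2 times the lowest, with 95% Wilson intervals: the median climbs to 19.6 below the dashed line and lies between 14.8 and 22.5 above it, and the high-background share reaches 34.8% at 2000 bp and above.

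The most enriched broad peak of a chromosome was only slightly wider than the minimum on I, II and III. On IV it was near the median width of the broad peaks, 1103 bp. On chromosome III it spanned chrIII:4063413-4064329 (917 bp), with a fold enrichment of 60.4 from 362 fragments over an expected 5.01. On chromosome I it was chrI:14971302-14972265 (964 bp), at 49.9-fold with 350 fragments over 6.04. On chromosome IV it was chrIV:8794583-8795664 (1082 bp), at 48.2-fold with 289 fragments over 5.01. The most enriched on chromosome II, chrII:5724815-5725727 (913 bp), reached 42.1-fold with 252 fragments over 5.01. In all 4 the summit lay at most 59 bp from the centre, so both flanks were of similar length. The third most enriched broad peak, chrIII:11202653-11204161, was of another shape: it was 1509 bp wide at 49.1-fold, and its summit was 321 bp to the left of the centre. The next, chrIII:3867032-3867962 (49.1-fold) and chrIII:887414-888533 (48.9-fold), had summits 53 and 80.5 bp from the centre. Ranked together with the 2900 narrower peaks, the 298 broad peaks took 8 of the first 10 places by enrichment. Width and enrichment are read from the same pileup, so this ranking describes a set chosen by width.

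The summits of broad peaks lay away from the centre. The distance from summit to centre had a median of 180 bp in the broad peaks and 23 bp in the narrower peaks, a difference of 157 bp (95% interval 127 to 179 bp). A longer interval leaves more room for the summit to lie off centre, so the distance was also expressed relative to the interval. On that scale, where 0% is the centre and 100% is either end, the median distance was 31.7% in the broad peaks (quartiles 11.5 and 45.5%) and 9.14% in the narrower peaks (quartiles 3.98 and 17.4%). The difference of 22.6 percentage points had a 95% interval of 17.4 to 26.2. The summit fell within 50 bp of the centre at 59 broad peaks (19.8%, 95% Wilson interval 15.7 to 24.7%), against 2333 narrower peaks (80.4%, 79.0 to 81.8%). A window of 50 bp to either side of the centre thus missed the summit at 239 of the 298 broad peaks. The summit was left of the centre in 152 of the 298 (95% interval 45.4 to 56.6%), an even division within counting error. With a width minimum of 800 bp the difference between broad and narrower peaks was smaller, at 83.5 bp, or 13.0 percentage points of relative distance.

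**Figure D3:**
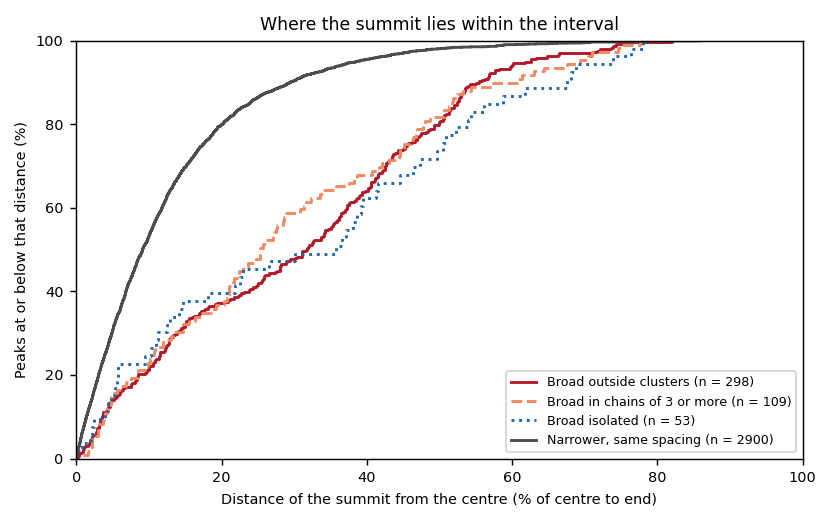
Cumulative percentage of peaks (vertical axis) against the distance of the summit from the centre as a percentage of the length from centre to end (horizontal axis) for broad peaks outside clusters (n = 298), broad peaks in chains (n = 109), broad isolated peaks (n = 53) and narrower peaks (n = 2900). The 3 sets of broad peaks run close together and far to the right of the narrower peaks, with medians of 31.7, 25.3, 35.8 and 9.14%.

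The larger relative distance was present at every level of enrichment and was smallest in the strongest peaks. It is scaled by the width on which the 2 sets were divided, so it is not independent of that choice. The values by class are therefore a description. Among peaks under 5-fold, the median relative distance was 50.6% in 28 broad peaks and 15.1% in 1028 narrower peaks. From 5- to 10-fold it was 43.4% in 44 broad and 7.43% in 1024 narrower peaks. From 10- to 20-fold it was 35.6% in 73 broad and 7.15% in 639 narrower peaks. In the broad peaks the median distance shrank from class to class, while in the narrower ones it differed little above 5-fold. From 20- to 30-fold the medians were 22.5% (95% interval 12.3 to 31.8%) in 87 broad peaks and 6.17% (5.09 to 7.09%) in 179 narrower peaks. At 30-fold and above they were 14.5% (11.5 to 17.6%) in 66 broad and 7.14% (3.88 to 11.1%) in 30 narrower peaks, and the intervals of the 2 sets remained apart.

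Measured from the summit outwards, broad peaks exceeded narrower ones by more on their longer side. The shorter flank had a median of 414.5 bp in the broad peaks and 228.5 bp in the narrower peaks, and the longer flank 715 bp in the broad and 271.5 bp in the narrower peaks. The longer flank was at least 2 times the shorter at 142 broad peaks (47.7%, 42.0 to 53.3%) and at 217 narrower peaks (7.48%, 6.58 to 8.50%). The flanks were also uneven at matched enrichment. From 5- to 10-fold the shorter flank was 286 bp in broad and 230.5 bp in narrower peaks, but the longer flank was 736.5 bp in broad and 269.5 bp in narrower peaks. At 30-fold and above, the shorter flank was 449 bp in broad and 361 bp in narrower peaks, and the longer flank 619.5 bp in broad and 426 bp in narrower peaks. The shorter flank of broad peaks thus stayed nearer to that of a narrower peak of the same enrichment, and the longer flank exceeded it by more. The sum of both flanks is the width by which the peaks were chosen, and the limit of 900 bp also caps the longer flank of the narrower peaks, so neither the flanks nor their division between the sides are independent of that choice. Within the broad peaks the relative distance of the summit also differed with width, with a median of 23.9% from 900 to 1000 bp, 28.6% from 1000 to 1500 bp, 51.4% from 1500 to 2000 bp and 37.2% at 2000 bp and above.

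**Figure D4:**
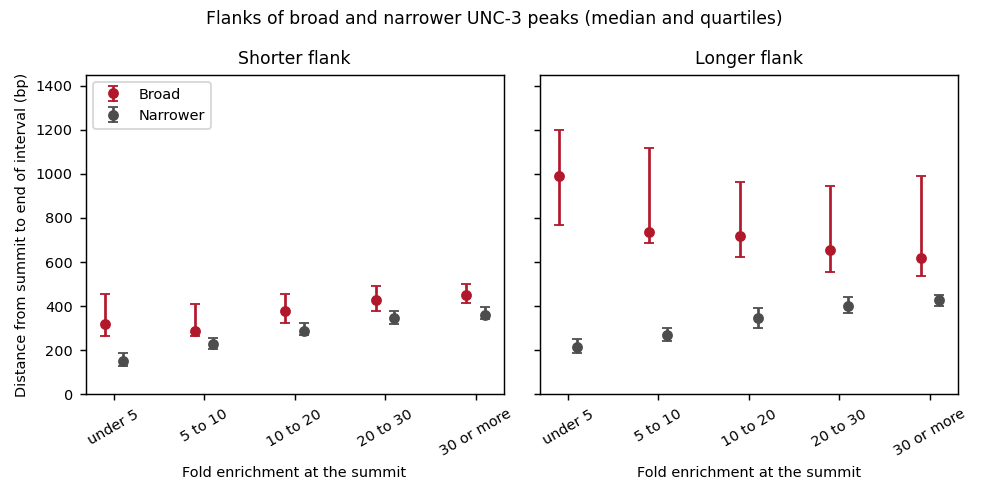
Distance in bp from the summit to the nearer end (left, shorter flank) and to the farther end (right, longer flank) of the interval, as medians with quartiles, for broad (red) and narrower (grey) peaks in 5 classes of fold enrichment. The longer flank of broad peaks is longest, at 989 bp, in the class under 5-fold, and shortens to 619.5 bp at 30-fold and above, while both flanks of narrower peaks lengthen with enrichment.

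The 5 broad peaks with the most displaced summits were of varied enrichment, from 2.50- to 30.3-fold. At chrI:9320070-9323007 (2938 bp, 9.48-fold) the summit was 1204.5 bp right of the centre, 82.0% of the way to the end, and 264.5 bp from the right end. At chrII:13598733-13599940 (1208 bp) it lay 75.1% of the way to the left end, at 2.50-fold over a background of 19.8 fragments. At chrIII:8871569-8874838 (3270 bp) it lay 74.3% of the way to the right end, at 30.3-fold with 234 fragments. In each of these the interval ran on for a long stretch on one side of its summit and ended soon on the other. At chrIII:7444181-7448269 the summit was 74.3% to the left, and at chrI:8263470-8265091 (1622 bp, 9.48-fold) 73.9% to the right. The 2 regions at 9.48-fold share this value because both had 56 fragments over the lowest background.

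A small group of broad peaks stood on a raised background. The expected background at the summit was 5.01 fragments at its lowest, the value taken by the caller where local coverage called for no higher one. It was within 0.5% of this at 107 broad peaks (35.9%, 30.7 to 41.5%) and at 1487 narrower peaks (51.3%, 49.5 to 53.1%). It was over 2 times the lowest at 23 broad peaks (7.72%, 5.20 to 11.3%) and at 25 narrower peaks (0.862%, 0.585 to 1.27%). This limit was chosen after the values were seen. Among the 23, the background had a median of 23.0 fragments and a range of 10.4 to 32.8, whereas in the other 275 broad peaks it did not exceed 8.74.

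These 23 regions were wide and weakly enriched. Their median width was 1866 bp against 1070 bp in the other 275 broad peaks, and their median fold enrichment 3.30 against 21.3. Fold enrichment is divided by the background, so low values in a group chosen for high background follow in part from that choice. This holds for all counts by fold enrichment given for the group. The pileup at the summits of the 23, which is not divided by the background, was lower too, with a median of 76 fragments against 138. Of the 28 broad peaks under 5-fold, 17 belonged to this group (60.7%, 42.4 to 76.4%), compared with 24 of the 1028 narrower peaks under 5-fold (2.33%, 1.57 to 3.45%). By width, the group made up 2.02% of the broad peaks from 900 to 1000 bp, 3.85% from 1000 to 1500 bp, 17.4% from 1500 to 2000 bp and 34.8% (18.8 to 55.1%) of those of 2000 bp or more. The high-background regions were found on each chromosome, with 6, 6, 5 and 6 on chromosomes I, II, III and IV. The part of the raised background in the width of these regions was not tested. Without the 23, 225 of 275 broad peaks (81.8%) reached 10-fold, while the median relative distance of the summit, 31.0%, stayed within the interval for the full set.

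The broad peaks of lowest enrichment all belonged to this group. The lowest, chrIII:8862613-8863599, had 56 fragments over an expected 28.7, a 1.92-fold enrichment. It was followed by chrI:10269711-10270695 at 2.25-fold (53 fragments over 23.0) and chrII:628860-629920 at 2.32-fold (43 over 17.9). The pileup at each of the 3 was above the median of 41 fragments of the narrower peaks, while the expected background was at least 17.9 fragments.

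Of the 5 widest broad peaks, 4 also belonged to it. The widest interval, chrI:15060099-15071527, was 11429 bp long and was followed, after 97 bp, by the last listed peak of the chromosome. It had 499 fragments at its summit over 32.8 (14.8-fold), and the summit lay 4100 bp left of the centre. At chrI:10945814-10950850 (5037 bp) 150 fragments stood over 27.8 (5.24-fold), at chrII:8288297-8292899 (4603 bp) 203 over 31.8 (6.22-fold), and at chrIII:7444181-7448269 (4089 bp) 179 over 26.0 (6.67-fold). The exception was chrII:11756687-11762184, 5498 bp wide, which reached 18.3-fold with 177 fragments over 8.74. None of the 5 was thus above the median enrichment of the broad peaks, although the pileup of the widest was the highest among them.

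Close neighbours were found at a larger share of broad peaks than of narrower peaks that met the same spacing conditions. Another peak lay within 1 kb of 124 broad peaks (41.6%, 36.2 to 47.3%) and of 770 narrower peaks (26.6%, 25.0 to 28.2%), a difference of 15.1 percentage points (9.36 to 20.9). Chains of 3 or more were removed from both sets, so each of these is a pair. The nearest peak was a median of 1210.5 bp away from broad and 1986.5 bp away from narrower peaks. By enrichment, another peak lay within 1 kb of 14 of the 28 broad peaks under 5-fold (32.6 to 67.4%), against 23.7% (21.2 to 26.4%) of the narrower ones. From 5- to 10-fold the shares were 43.2% (29.7 to 57.8%) in broad and 26.3% (23.7 to 29.1%) in narrower peaks, and the intervals were apart in both of these classes. From 10- to 20-fold they were 31.5% (22.0 to 42.9%) in broad and 31.0% (27.5 to 34.7%) in narrower peaks. From 20- to 30-fold they were 44.8% (34.8 to 55.3%) in broad and 29.6% (23.4 to 36.7%) in narrower peaks. At 30-fold and above the share was 43.9% (32.6 to 55.9%) in broad peaks, against 6 of 30 narrower peaks (9.51 to 37.3%). The share was thus higher in broad peaks in every class, though by little from 10- to 20-fold. In the 3 classes from 10-fold on the intervals overlapped, which does not show that the shares were alike. No interval of the difference was computed by class. Gaps were measured from the ends of the intervals, so a wider interval reaches nearer to its neighbours, and the part of its length in these shares was not tested.

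Within pairs the partner of a broad peak was more often a narrower than a broad one. It was under 900 bp in 86 of the 124 cases. In 71 of those (82.6%, 73.2 to 89.1%) the broad peak had the higher fold enrichment. Width and enrichment are read from the same pileup, so this share is a description. A narrower peak in a pair, with a partner of any width, was the stronger one in 356 of 770 cases (46.2%, 42.7 to 49.8%). In the other 38 cases of the 124 (30.6%, 23.2 to 39.2%) the partner was itself broad, giving 19 pairs of broad peaks. By comparison, 10.5% of all peaks on chromosomes I to IV were 900 bp or wider. The summit lay on the partner's side of the centre in 72 of the 124 (58.1%, 49.3 to 66.4%), compared with 347 of the 770 narrower peaks in pairs (45.1%, 41.6 to 48.6%). The interval for the broad peaks takes in an even division, but it does not overlap that of the narrower peaks, which lies below an even division. The displacement of the summit was of similar size with and without a partner: the median relative distance was 31.1% (22.7 to 37.3%) in the 124 broad peaks in pairs and 32.1% (25.8 to 35.5%) in the other 174.

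Set beside its nearest neighbour at any distance, a broad peak had the higher fold enrichment in 221 of 298 cases (74.2%, 68.9 to 78.8%), and a narrower peak in 1338 of 2900 (46.1%, 44.3 to 48.0%). At matched enrichment the intervals of broad and narrower peaks overlapped in all 5 classes. The share was 28.6% (15.3 to 47.1%) in broad and 15.6% (13.5 to 17.9%) in narrower peaks under 5-fold, and 61.4% (46.6 to 74.3%) in broad and 49.2% (46.2 to 52.3%) in narrower peaks from 5- to 10-fold. It was 68.5% in broad and 75.7% in narrower peaks from 10- to 20-fold, 87.4% in broad and 90.5% in narrower peaks from 20- to 30-fold, and 90.9% in broad and 93.3% in narrower peaks at 30-fold and above.

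The broad peaks were found on all 4 chromosomes. Chromosome I held 94, or 7.88% of its peaks (6.48 to 9.55%), chromosome II 62 (6.01%, 4.71 to 7.63%), chromosome III 73 (6.56%, 5.25 to 8.18%) and chromosome IV 69 (6.55%, 5.21 to 8.21%). The intervals overlapped, which does not settle whether the shares differed, and no difference in share between chromosomes was tested. Per Mb up to the last peak, chromosome I held 6.24 broad peaks, II 4.06, III 5.30 and IV 3.94. The differences between these densities were not tested. The median fold enrichment was 23.3 on chromosome I (20.4 to 26.4), 14.9 on II (10.8 to 21.6), 20.1 on III (16.6 to 23.1) and 19.1 on IV (16.1 to 23.0). These intervals overlapped, which does not show that the medians were alike, and differences between chromosomes were not tested. On every chromosome the median of the broad peaks was above that of the narrower peaks, which ranged from 6.27 on IV to 6.79 on I. The median relative distance of the summit was 33.4, 34.8, 31.6 and 28.0% in the broad peaks of chromosomes I, II, III and IV, against 9.00 to 9.38% in the narrower peaks. When each chromosome was divided into 3 equal parts up to its last peak, 145 broad peaks (48.7%, 43.0 to 54.3%) and 1275 narrower peaks (44.0%, 42.2 to 45.8%) lay in the middle part. The difference of 4.69 percentage points had an interval from -1.21 to 10.6, so no difference in location was detectable with this number of peaks, although the interval lay above 0 under 4 of the alternative settings.

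The broad peaks set aside for their spacing had overlapping values of height and shape. Those outside clusters had a median fold enrichment of 20.4 (17.6 to 22.1), compared with 19.1 (17.5 to 21.9) for the 109 in chains and 18.3 (13.9 to 22.9) for the 53 isolated ones. The median relative distance of the summit was 31.7% (26.5 to 35.3%) outside clusters, 25.3% (21.1 to 31.4%) in chains and 35.8% (14.1 to 41.5%) in isolated peaks. The summit was within 50 bp of the centre at 19.8% of the broad peaks outside clusters, 22.0% of those in chains and 26.4% of the isolated ones. A background over 2 times the lowest was found at 7.72% (5.20 to 11.3%) of those outside clusters, 10.1% (5.73 to 17.2%) of those in chains and 20.8% (12.0 to 33.5%) of the isolated ones. The last of these is the only measure of the 4 for which the intervals of 2 sets did not overlap, and the difference was not tested.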

How the data were processed

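Uniquely mapped reads were aligned to ce10 by the authors with bowtie2, and MACS2 was run on the ChIP library against input. The sources used here state its q-value cutoff as 0.05 and as 0.005 and give no versions. The largest q-value in the list was 0.0125, so the list was not cut at 0.005. What the authors deposited is 1 line a peak with its start, end, summit, fold enrichment (a ratio), −log10 p-value and −log10 q-value. A deposited score was not used. Both the broad peaks and all measures were chosen with earlier results of these data known. Intervals were handled in Python 3.11.15 with pandas 2.3.3, numpy 2.4.6, matplotlib 3.10.9 and scipy 1.17.1. The first or last peak of a chromosome was judged on its 1 neighbour. Pileup and background were solved from fold enrichment and p-value with a pseudocount of 1, to within 0.001 of the −log10 p-value, at 6891 of 6892 peaks and at all 298 broad ones. Tested on 6892 simulated peaks, 100% of pileups were recovered. A peak list does not give depth, and its lowest pileup was 14 fragments.

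Shares carry 95% Wilson intervals and medians 95% order-statistic intervals, which Newcombe's method combined for differences. No test was run, since there was no replicate. Regions are named by rank: the most enriched on each chromosome and the 5 most enriched in all, the 5 widest, the 5 with the most displaced summits, the 3 of highest background, the 3 of lowest enrichment, and those next to the width minimum. The only gene table used here is on WBcel235, so no gene was assigned to a peak and no sequence is shown.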

Additional observations from a re-analysis of the deposited data

How the results depend on the processing

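No paired analysis was possible because the study has a single ChIP library and a single input, and nothing was tested across samples. The alternatives varied the width minimum (800 and 1000 bp), the q-value (1e-05 and 1e-10), the gaps that define chains (500 and 2000 bp) and isolation (5000 and 20000 bp), and the set of narrower peaks. Restricting both sets to a background of at most 2 times the lowest was chosen after seeing the data. The number of broad peaks ran from 199 at 1000 bp to 444 at 800 bp. No difference between broad and narrower peaks changed sign, and 97 of 103 alternative values stayed within the interval of the value reported or, for the number of peaks, within 1.5 times it. With a minimum of 800 bp the median distance of the summit from the centre exceeded that of narrower peaks by 83.5 bp, or by 13.0 percentage points as a relative distance, and the share of summits within 50 bp differed by -51.5 points. With 1000 bp the distance exceeded it by 221.5 bp, and the share with another peak within 1 kb by 21.1 points. With the background limit the share at 10-fold or more differed by 52.4 points, instead of 46.6. The cause of these shifts was not tested. The difference in the middle part of chromosomes ran from 1.27 to 6.77 points, and its interval, which held 0 as reported, no longer did so with q-values at or below 1e-10 (6.72), chains joined below 500 bp (6.49), isolation at 20000 bp (5.86) and all narrower peaks (6.19). The effect of depth cannot be varied from a peak list.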
